A study of Mus musculus with 40 samples.

Results

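The mitochondrial genome transcripts are all genes that GENCODE M21 annotates on chrM, the mouse mitochondrial chromosome, with symbols that start with mt-. They were matched by Ensembl identifier to the deposited counts of single mouse embryos. There were 37 of them among 55487 mouse gene entries: 13 protein-coding genes, 2 rRNA genes and 22 tRNA genes. The filter on low counts kept 15 of the 37, which were the 13 protein-coding and both rRNA genes, among 11844 genes tested in all. A gene could pass it through the groups where it was high, so the counts over the 15 describe those genes and not all 37.

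RNA from 40 single embryos was sequenced with SMART-seq2, a protocol that copies polyadenylated RNA into full-length cDNA and does not mark the strand. Zygotes were injected 17 to 18 h after hCG with 20 µM siRNA against Rif1 (siRif1), a chromatin protein that controls replication timing, or with 20 µM control siRNA (siCon), and were cultured at 37 °C in 5% CO2. The 8-cell groups, collected 70 h after hCG, held 12 siRif1 and 8 siCon embryos, and the 4-cell groups, collected 63 h after hCG, held 13 siRif1 and 7 siCon embryos. All embryos shared the injection, the culture and the ERCC spike-in RNA of the lysis buffer. The labels give the cross as (C57BL/6J xCBA) x DBA/2J for the first sample, and the number of the last strain is higher by 1 for each sample after it. Whether embryos of a group stem from 1 litter or 1 injection session is not in the labels, so a p-value here measures the spread among these embryos, which may be technical.

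The mitochondrial genome is a circle inherited from the mother and present in many copies per cell. Both strands are transcribed as long precursors, from which tRNAs are cut out so that the mRNAs and rRNAs between them are released. Most of these mRNAs and rRNAs receive short A tails. The mRNAs encode core subunits of respiratory complexes I, III and IV and of the ATP synthase, and the rRNAs and tRNAs serve the mitochondrial ribosome. Early mouse embryos live on mitochondria that the oocyte made, and replication of mitochondrial DNA is known to stay low until later in preimplantation development. SMART-seq2 starts from A tails, so the amount of a mitochondrial RNA and the share of it that carries a tail cannot be told apart in these counts.

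Counts on mouse genes ran from 704863 to 8890551 per embryo, those on chrM genes from 49218 to 333687, and those on ERCC RNA from 18361 to 199075. Because reads were not tagged per molecule, a floor printed here accounts for counting error and nothing else. Rif1 averaged 220 ± 92.9 CPM in siRif1 and 314 ± 42.6 CPM in siCon 8-cell embryos, and 178 ± 94.5 CPM in siRif1 and 428 ± 107 CPM in siCon 4-cell embryos (SD). The siRif1 over siCon fold change on the log2 scale was -1.26 at the 4-cell stage (SE 0.24, adjusted p = 0.0064 by edgeR) and -0.52 at the 8-cell stage (SE 0.24, adjusted p = 0.999 by edgeR). Of 8 markers of cleavage embryos, 7 were tested and 4 were higher and 0 lower in siRif1 8-cell than in siRif1 4-cell embryos, and 3 were higher and 0 lower in siCon 8-cell than in siCon 4-cell embryos, where 14.5% and 13.7% of all genes were called higher. Dppa3 and Klf5 had at least 992 and 75.2 CPM in each embryo, while Eomes was low and at 0 in some embryos of each group. Of 12 cumulus and granulosa markers, Fshr, Inhba and Ptx3 were at 0 in all 40 embryos, and the summed level of the list, 24.5 to 114 CPM, came mostly from Amhr2 (2 of the 12 were tested). Of those 2, 1 was called higher and 0 lower in siRif1 8-cell than in siRif1 4-cell embryos, or 0 to 1 higher when 1 embryo was left out. Between siCon 8-cell and siCon 4-cell embryos 0 were called, or 1 lower without control 4-cell embryos 3 and 7. Control 4-cell embryos 3 and 7 stood apart from the other controls, with 0.977 and 2.08 CPM of the imprinted gene Snrpn against at least 45.2 CPM. Values without them are given beside results that rest on the siCon 4-cell group where they change a call, turn a direction or move a value.

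The counts of 7 chrM genes are uncertain because their sequence is also present in the nucleus. A stretch of chromosome 1 carries a nuclear copy of mitochondrial DNA, 4663 bases at chr1:24611535-24616197 on the minus strand (GRCm38), whose genes GENCODE annotates as Gm28439, Gm10222, Gm28438, Gm28437, Gm10925, Gm28661 and Gm29216. Gm28661 matched mt-Co2 over 681 bases with 0 mismatches, and Gm28438 matched mt-Nd3 over 345 bases with 1 mismatch. The first 120 bases of both pairs are printed as examples of what a read has to go by, from the GENCODE M21 transcripts on GRCm38, with capitals marking the base that differs between copy and chrM gene (mt-Co2 at chrM:7013-7132, Gm28661 at chr1:24615446-24615565, mt-Nd3 at chrM:9459-9578, Gm28438 at chr1:24613000-24613119).
mt-Co2: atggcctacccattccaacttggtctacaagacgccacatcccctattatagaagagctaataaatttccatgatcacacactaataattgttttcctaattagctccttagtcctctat
Gm28661: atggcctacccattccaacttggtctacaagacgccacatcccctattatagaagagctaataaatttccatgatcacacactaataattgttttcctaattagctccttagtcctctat
mt-Nd3: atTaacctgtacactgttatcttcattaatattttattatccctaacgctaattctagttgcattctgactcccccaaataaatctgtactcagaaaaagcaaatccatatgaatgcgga
Gm28438: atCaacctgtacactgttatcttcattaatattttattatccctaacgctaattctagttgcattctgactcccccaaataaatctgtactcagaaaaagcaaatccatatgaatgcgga

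To see how far this reaches, every run of 75 bases in a chrM gene was looked up in the other annotated transcripts. The share of runs found elsewhere without a mismatch was 99.9% for mt-Co3, 99.5% for mt-Co2 and for mt-Atp6, 98.7% for mt-Nd4l and 97.8% for mt-Nd3. It was 61.5% for mt-Nd4, 39.8% for mt-Co1, 5.71% for mt-Nd2 and 1.66% for mt-Nd5. Besides the chromosome 1 copy, annotated copies on chromosomes 2, 4 and 13 matched mt-Co1, mt-Co2, mt-Nd2 and mt-Nd5 at 92.5% to 97.6% identity. No run of mt-Rnr1, mt-Rnr2, mt-Nd1, mt-Atp8, mt-Nd6 or mt-Cytb was found in another annotated transcript. The chromosome 1 copy leaves 233 bases between the genes that match mt-Co2 and mt-Atp6, against 230 bases on chrM, where mt-Atp8 begins, and GENCODE annotates no gene in that gap. The share therefore says nothing about the sequence there.

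The deposited tables keep reads that map to several places apart from the genes, and those were 5.02% to 7.06% of reads. A read that matches the chromosome and its copy equally well is thus missing from both. For 4 of the copies the median count was above that of the chrM gene. Gm28661 had a median of 231 counts beside 171 for mt-Co2, Gm10925 had 486.5 beside 289 for mt-Atp6, Gm28437 had 108.5 beside 88 for mt-Co3, and Gm10222 had 121 beside 22 for mt-Nd4l. Gm28439, which matches 876 bases of mt-Nd4 with 0 mismatches, was far below it, with 216 beside 4819. The counts of mt-Co2, mt-Co3, mt-Atp6, mt-Nd3, mt-Nd4l and mt-Nd4, and in part of mt-Co1, are uncertain for this reason, in all 4 groups.

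A second overlap lies within chrM. mt-Atp8 and mt-Atp6, the mitochondrially encoded subunits of the ATP synthase, share bases of 1 transcript in different reading frames, and a read over the overlap belongs to both genes and is not assigned to either. The whole of mt-Atp8 at chrM:7766-7969, plus strand, is shown with the 43 bases that it shares with mt-Atp6 in capitals.
mt-Atp8: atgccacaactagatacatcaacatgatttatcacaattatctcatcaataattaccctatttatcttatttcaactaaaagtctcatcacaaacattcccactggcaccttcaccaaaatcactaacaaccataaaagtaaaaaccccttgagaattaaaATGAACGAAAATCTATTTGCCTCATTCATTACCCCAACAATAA

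mt-Nd4l and mt-Nd4 overlap by 7 bases. mt-Nd6, the complex I subunit encoded on the other strand, overlaps mt-Nd5 by 14 bases. The counts do not use strand, so reads of mt-Nd6 and reads of antisense RNA from the opposite strand cannot be told apart.

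Per kilobase of annotated length, the 15 genes covered a wide range with an order much alike between embryos. Levels are given as CPM, counts scaled to the size of the library with TMM factors, per kb, as the median over the 40 embryos. That median was 12085 for mt-Rnr2, the 16S rRNA at chrM:1094-2675. It was 7186 for mt-Cytb, the chrM-encoded subunit of complex III at chrM:14145-15288, and 3985 for mt-Nd1, a complex I subunit. mt-Rnr2 was above mt-Cytb in 38 of 40 embryos, mt-Cytb was above mt-Nd1 in 39, and mt-Nd1 was above the next gene in 40.

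Next came mt-Co1, the catalytic subunit of complex IV, with 2024 CPM per kb, and the complex I subunits mt-Nd2 with 1354, mt-Nd4 with 1224 and mt-Nd5 with 1173. mt-Nd4 and mt-Nd5 had no settled order, since mt-Nd4 was the higher in 23 of 40 embryos. mt-Rnr1, the 12S rRNA at chrM:70-1024, followed with 446 CPM per kb, and mt-Nd6 with 430; mt-Rnr1 was the higher in 21 of 40. The 12S rRNA, which lies directly upstream of the 16S rRNA on the same precursor, thus stood far below it in every group, with a mean log2 ratio of counts mt-Rnr2 over mt-Rnr1 of 5.59 in siRif1 and 5.55 in siCon 8-cell embryos, and of 5.56 in siRif1 and 5.65 in siCon 4-cell embryos.

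The lowest levels were those of the 5 genes with shares of 97.8% and more, and of mt-Atp8, while mt-Nd4 and mt-Co1, which also have a copy, ranked higher. They were 267 CPM per kb for mt-Nd3, 144 for mt-Atp6, 79.6 for mt-Co2, 37.8 for mt-Co3, 24.2 for mt-Atp8 and 22.8 for mt-Nd4l. mt-Atp8 and mt-Nd4l were not separated, as mt-Atp8 was the higher in 27 of 40 embryos. These values are counts that could be assigned, and the part of their position in the order that comes from unassigned reads was not tested. GC content of the 15 genes ran from 31.9% in mt-Atp8 to 41.1% in mt-Nd4l.

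**Figure D1:**
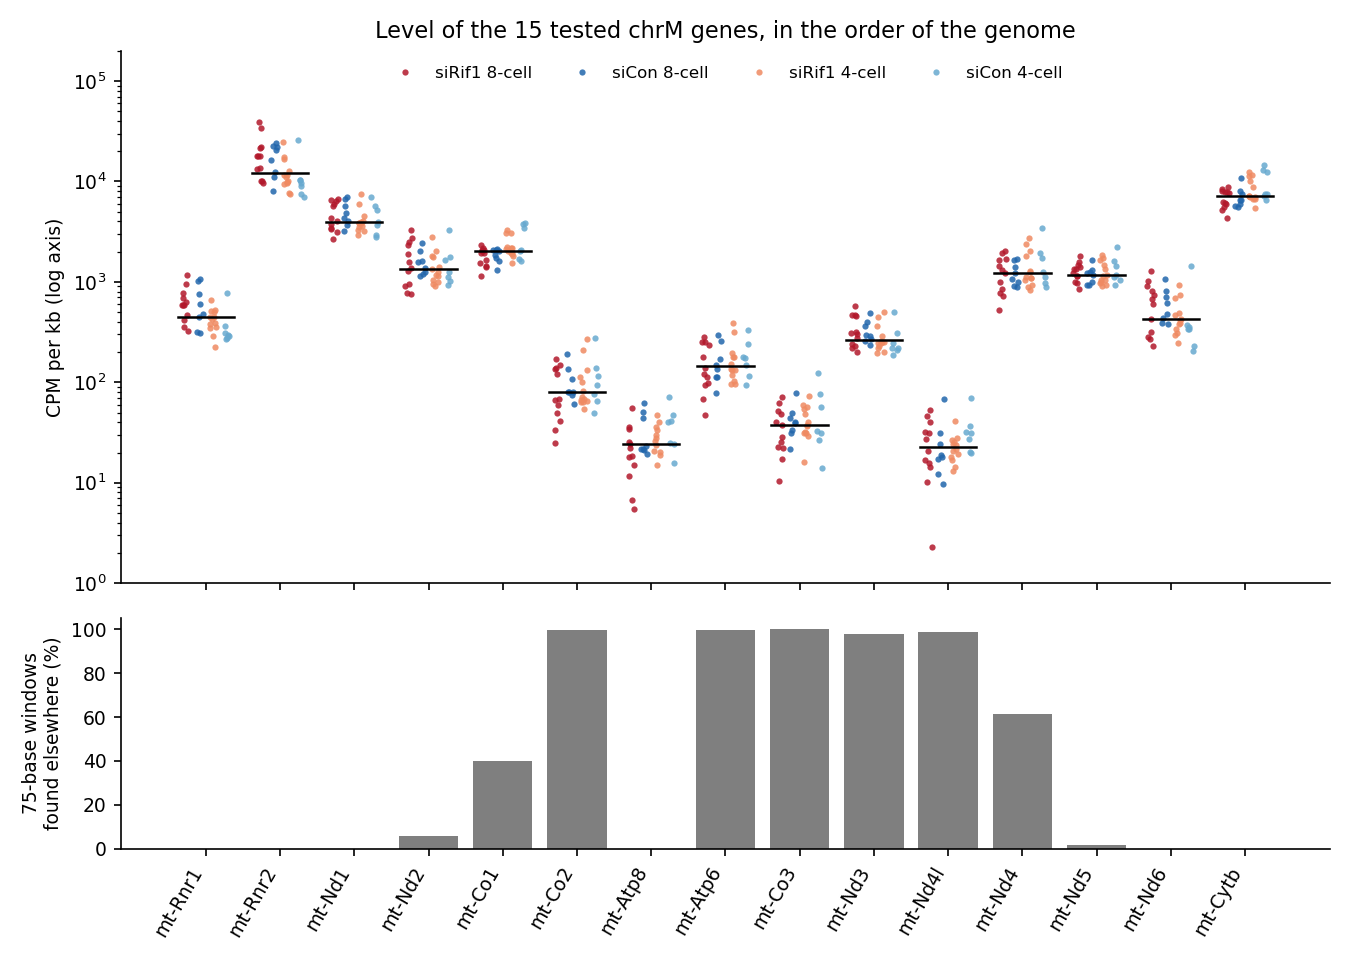
Upper panel: level of the 15 tested chrM genes in the order of the genome, as TMM-scaled CPM per kb on a log axis, with 1 point per embryo coloured by group and a line at the median of all 40 embryos (mt-Atp8 was at 0 in 1 siRif1 4-cell embryo, which is not drawn). Lower panel: percent of the 75-base runs of each gene found without a mismatch in another annotated transcript; the run of genes with shares of 97.8% and more holds the low levels in the middle, with mt-Atp8 at 0% and also low.

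The 7 most abundant genes, which are mt-Rnr2, mt-Cytb, mt-Nd1, mt-Co1, mt-Nd5, mt-Nd4 and mt-Nd2, together held 97.7% ± 0.35 of chrM counts (SD, n = 40). mt-Rnr2 alone held 48.8% ± 8.91 and mt-Cytb 19.9% ± 5.06. Sums over chrM are therefore sums over a few genes, and the 6 genes most affected by the nuclear copy hardly enter them, apart from mt-Nd4 with 3.96% ± 0.84.

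The tRNA genes had almost no counts in these libraries. The 22 are 59 to 75 bases long and lie next to other genes, and a read over neighbouring genes is not assigned to any. Counts of 0 therefore do not bound the level of a tRNA. Of the 22, 21 had 0 counts in all 40 embryos, against 5647606 counts on chrM genes in all, of which the floor of 3 counts is 5.31e-05%. The exception was mt-Tp, the tRNA for proline on the minus strand at chrM:15356-15422 and the last annotated gene before the control region, with 221 counts spread over 37 embryos and at most 17 in 1 embryo. Its sequence is shown because it is the single tRNA with any count, and no base is in capitals.
mt-Tp: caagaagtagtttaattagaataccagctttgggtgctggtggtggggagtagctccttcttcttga

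As a share of mouse gene counts, the 37 genes took a like part in all 4 groups. The share was 2.80% to 5.79% with a median of 4.28% in siRif1 8-cell embryos, and 3.51% to 5.79% with a median of 4.72% in siCon 8-cell embryos. It was 3.49% to 6.98% with a median of 4.39% in siRif1 4-cell embryos, and 3.15% to 7.64% with a median of 3.81% in siCon 4-cell embryos. The groups overlapped widely. The means were 4.38% ± 1.05 in siRif1 and 4.59% ± 0.939 in siCon 8-cell embryos, and 4.68% ± 1.15 in siRif1 and 4.96% ± 1.84 in siCon 4-cell embryos (SD). Without control embryos 3 and 7, whose shares were 5.93% and 6.96%, the siCon 4-cell mean was 4.37% and its difference from siRif1 4-cell embryos turned, from -0.29 to 0.31 percentage points. The difference between siCon 8-cell and siCon 4-cell embryos turned in the same way, from -0.38 to 0.21 percentage points.

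Against the spike-in, which measures RNA per embryo, chrM counts were higher at the 8-cell stage. The log2 ratio of chrM counts to ERCC counts was 0.90 to 1.67 with a median of 1.14 in siCon 8-cell embryos, and -0.02 to 0.85 with a median of 0.37 in siCon 4-cell embryos. These groups did not overlap, and the mean difference of 0.80 is 1.75-fold, or 0.76 without control embryos 3 and 7. In siRif1 embryos the log2 ratio was 0.70 to 1.65 with a median of 1.25 at the 8-cell stage, and -0.43 to 1.12 with a median of 0.59 at the 4-cell stage. There 8 of 12 siRif1 8-cell embryos lay above all siRif1 4-cell embryos, and the mean difference of 0.66 is 1.59-fold. As sums over the genes described, these differences carry no test.

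Counts on nuclear genes per ERCC count were higher too. The mean difference of their log2 ratio to ERCC was 0.87 between siCon 8-cell and siCon 4-cell embryos, or 0.64 without control embryos 3 and 7, and 0.77 between siRif1 8-cell and siRif1 4-cell embryos. A whole embryo was lysed each time, and the labels give 8 cells against 4, so these ratios are per embryo and not per cell. The chrM differences of 1.75-fold in siCon and 1.59-fold in siRif1 embryos lie below that ratio of cell numbers. RNA per mitochondrion and the number of mitochondria cannot be told apart. Between embryos of a group, the chrM ratio spread less than the nuclear one, with a standard deviation within groups of 0.32 against 0.55 on the log2 scale. Control 4-cell embryo 5 had both the lowest log2 ratio of nuclear counts to ERCC of all 40 embryos, 3.58, and the highest chrM share, 7.64%.

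The rRNAs made up more of the chrM counts at the 8-cell stage. mt-Rnr1 and mt-Rnr2 together made up 47.3% to 70.0% of chrM counts with a median of 56.5% in siRif1 8-cell embryos, and 42.5% to 66.6% with a median of 54.8% in siCon 8-cell embryos. They made up 38.0% to 56.3% with a median of 45.1% in siRif1 4-cell embryos, and 33.2% to 49.6% with a median of 40.1% in siCon 4-cell embryos. The stages overlapped, and 7 of 12 siRif1 8-cell embryos and 5 of 8 siCon 8-cell embryos lay above all 4-cell embryos of the same siRNA. The mean log2 ratio of rRNA to mRNA counts was higher by 0.67 in siRif1 8-cell than in siRif1 4-cell embryos, and by 0.86 in siCon 8-cell than in siCon 4-cell embryos, or 0.70 without control embryos 3 and 7. Those embryos, at 33.8% and 33.2%, had the lowest rRNA shares of all 40.

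**Figure D2:**
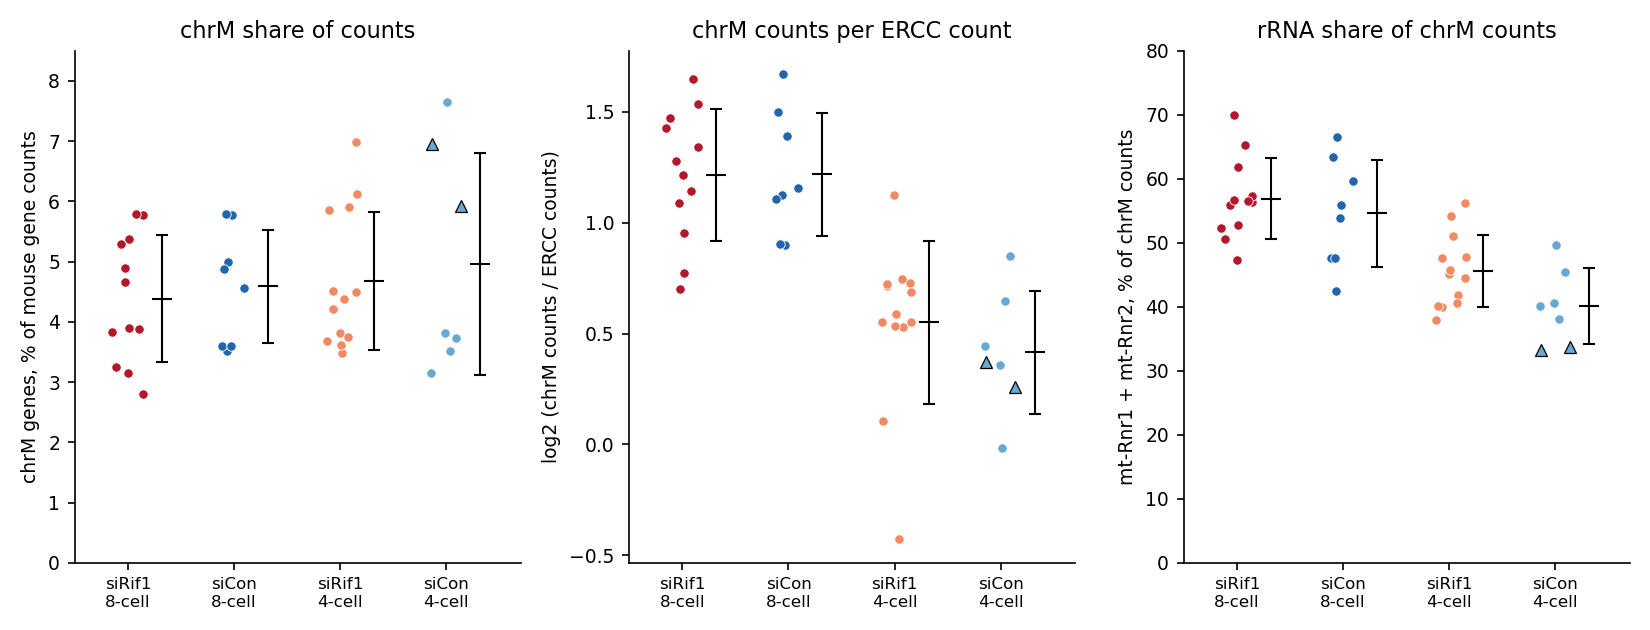
Left: percent of mouse gene counts on the 37 chrM genes. Middle: log2 ratio of chrM counts to ERCC counts. Right: percent of chrM counts on the rRNA genes mt-Rnr1 and mt-Rnr2. Each point is 1 embryo, the bar beside each group is the mean with its SD, and black-edged triangles are control 4-cell embryos 3 and 7; the share overlaps in all groups, while the ratio to ERCC and the rRNA part are higher in both 8-cell groups.

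Split by class, rRNA counts per ERCC were 1.98-fold higher in siRif1 8-cell than in siRif1 4-cell embryos and 2.37-fold higher in siCon 8-cell than in siCon 4-cell embryos, and in both cases every 8-cell embryo lay above every 4-cell embryo. Protein-coding chrM counts per ERCC were 1.25-fold higher in siRif1 and 1.31-fold higher in siCon embryos, with 5 of 12 and 5 of 8 embryos above all 4-cell embryos.

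The single genes were tested with edgeR's quasi-likelihood test on all 11844 genes, with Benjamini-Hochberg adjustment and a threshold of 0.05. On the relative scale, where libraries are scaled by TMM, 2 of 15 chrM genes passed between siRif1 8-cell and siRif1 4-cell embryos, against 29.8% of all genes. Between siCon 8-cell and siCon 4-cell embryos 2 of 15 passed, against 30.0% of all genes. A share of 2 in 15 is below the background in both. The median log2 fold change of the 15 was 0.03 in siRif1 and -0.20 in siCon embryos, beside -0.01 and -0.03 over all genes.

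mt-Rnr1 was called higher at the 8-cell stage with both siRNAs. It had 309 to 1107 CPM with a median of 565 in siRif1 8-cell embryos, and 216 to 624 CPM with a median of 408 in siRif1 4-cell embryos. It had 297 to 1027 CPM with a median of 518 in siCon 8-cell embryos, and 257 to 737 CPM with a median of 285 in siCon 4-cell embryos. The ranges overlapped in both pairs, with the highest siCon 4-cell value in embryo 5. Its log2 fold change was 0.58 (SE 0.20, adjusted p = 0.0279 by edgeR) in siRif1 and 0.77 (SE 0.27, adjusted p = 0.0246 by edgeR) in siCon embryos. The siCon call was lost without embryos 3 and 7 (0.70, adjusted p = 0.087 by edgeR), and without siCon 4-cell embryo 4 or siCon 8-cell embryo 1, 4 or 7 (0.62 to 0.71). The siRif1 call was lost without siRif1 4-cell embryo 12 or siRif1 8-cell embryo 6 or 11 (0.44 to 0.52).

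mt-Rnr2 passed in siRif1 embryos, with 15110 to 62110 CPM and a median of 28447 in siRif1 8-cell embryos, and 11875 to 39275 CPM and a median of 17496 in siRif1 4-cell embryos. The ranges overlapped, and 2 of 12 siRif1 8-cell embryos lay above all siRif1 4-cell embryos. On the log2 scale it was higher by 0.62, with an SE of 0.23 and an adjusted p of 0.0338 by edgeR, and the call was lost without siRif1 4-cell embryo 2, 3, 6 or 12 or siRif1 8-cell embryo 5, 6 or 11 (0.45 to 0.59). In siCon embryos its value was 0.58 (SE 0.29, adjusted p = 0.129 by edgeR).

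mt-Co1 was called lower at the 8-cell stage in siCon embryos. It had 2017 to 3254 CPM with a median of 2985 in siCon 8-cell embryos, and 2499 to 5902 CPM with a median of 3224 in siCon 4-cell embryos. Most of each range overlapped, and 2 of 8 siCon 8-cell embryos lay below all siCon 4-cell embryos. On the log2 scale it fell by 0.51, with an SE of 0.18 and an adjusted p of 0.0298 by edgeR. Its log2 fold change was -0.25 (adjusted p = 0.33 by edgeR) without control embryos 3 and 7, and the call was also lost without siCon 4-cell embryo 3, 5 or 7 or siCon 8-cell embryo 3 or 6 (-0.40 to -0.49). With limma-voom its log2 fold change was -0.21 (adjusted p = 0.337) and it was not called. In siRif1 embryos it was -0.32 (SE 0.14, adjusted p = 0.083 by edgeR). Per ERCC count the mt-Co1 values were 0.19 in siRif1 and 0.15 in siCon embryos, so its direction differs between the scales.

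Per ERCC count, all 15 chrM genes had a log2 fold change above 0, 8-cell over 4-cell, with either siRNA, and none was called lower. Higher calls were made for 5 of 15 chrM genes between siRif1 8-cell and siRif1 4-cell embryos, where 23.1% of all genes were called higher and 3.72% lower, 26.8% together. Between siCon 8-cell and siCon 4-cell embryos they were made for 4 of 15, where 15.2% of all genes were called higher and 3.59% lower, 18.8% together. The median of all genes on this scale was a log2 fold change of 0.46 in siRif1 and 0.49 in siCon embryos, and the median of the 15 was 0.48 and 0.56. mt-Rnr1, mt-Rnr2, mt-Nd3 and mt-Nd6 passed in both comparisons, and mt-Nd2 passed in siRif1 embryos.

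The 16S rRNA separated the stages on this scale. mt-Rnr2 had 997 to 1726 counts per 1000 ERCC counts with a median of 1354 in siRif1 8-cell embryos, and 370 to 959 with a median of 662 in siRif1 4-cell embryos. It had 881 to 2080 with a median of 1152 in siCon 8-cell embryos, and 395 to 805 with a median of 511 in siCon 4-cell embryos. Neither pair overlapped. Its log2 difference was 0.96 (SE 0.23, adjusted p = 0.0018 by edgeR) in siRif1 and 1.27 (SE 0.30, adjusted p = 0.0024 by edgeR) in siCon embryos, which is 0.50 and 0.79 above the median of all genes. The siCon value was 1.15 (adjusted p = 0.0182 by edgeR) without control embryos 3 and 7.

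The 12S rRNA was also higher, at a much lower level. mt-Rnr1 had 19.9 to 45.2 counts per 1000 ERCC counts with a median of 25.4 in siRif1 8-cell embryos, and 7.55 to 23.1 with a median of 14.6 in siRif1 4-cell embryos. It had 10.4 to 48.4 with a median of 28.1 in siCon 8-cell embryos, and 7.63 to 15.0 with a median of 9.97 in siCon 4-cell embryos. The groups overlapped at their edges, with 9 of 12 siRif1 and 6 of 8 siCon 8-cell embryos above all 4-cell embryos. Its log2 fold change per ERCC count reached 0.92 (SE 0.24, adjusted p = 0.0046 by edgeR) in siRif1 and 1.46 (SE 0.32, adjusted p = 0.0013 by edgeR) in siCon embryos, which is 0.46 and 0.97 above the median of all genes. Without control embryos 3 and 7 the siCon value was 1.32 (adjusted p = 0.0148 by edgeR).

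Among the protein-coding genes, mt-Nd6 came closest to the rRNAs, in counts that do not tell its RNA from antisense RNA. It had 10.4 to 18.3 counts per 1000 ERCC counts with a median of 13.5 in siRif1 8-cell embryos, and 4.43 to 10.8 with a median of 8.67 in siRif1 4-cell embryos. It had 8.51 to 22.6 with a median of 14.4 in siCon 8-cell embryos, and 4.42 to 10.2 with a median of 5.90 in siCon 4-cell embryos. In siRif1 embryos 10 of 12, and in siCon embryos 7 of 8, of the 8-cell values lay above all 4-cell values. This gives log2 fold changes of 0.73 (SE 0.22, adjusted p = 0.0118 by edgeR) in siRif1 and 1.23 (SE 0.29, adjusted p = 0.0024 by edgeR) in siCon embryos. The siCon value became 1.06 (adjusted p = 0.027 by edgeR) without control embryos 3 and 7. The siRif1 call was lost with no filter on low counts (0.73, adjusted p = 0.086 by edgeR) and with the replicate number as a block (0.67, adjusted p = 0.053 by edgeR). On the relative scale mt-Nd6 had 0.43 (adjusted p = 0.25) and 0.38 (adjusted p = 0.45) by edgeR and was not called.

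mt-Nd3, a complex I subunit with a near-identical copy, had 3.63 to 7.55 counts per 1000 ERCC counts with a median of 5.99 in siRif1 8-cell embryos, and 1.59 to 5.44 with a median of 3.63 in siRif1 4-cell embryos. It had 3.47 to 7.00 with a median of 5.41 in siCon 8-cell embryos, and 1.97 to 3.87 with a median of 3.03 in siCon 4-cell embryos. The stages overlapped at the edges. Between the stages the log2 difference came to 0.64 (SE 0.22, adjusted p = 0.0247 by edgeR) in siRif1 and 0.91 (SE 0.28, adjusted p = 0.020 by edgeR) in siCon embryos, and the siCon value was 0.79 (adjusted p = 0.103 by edgeR) without control embryos 3 and 7.

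mt-Nd2 had 51.3 to 94.0 counts per 1000 ERCC counts with a median of 72.1 in siRif1 8-cell embryos, and 22.1 to 65.6 with a median of 52.2 in siRif1 4-cell embryos. Its log2 fold change was 0.56 (SE 0.21, adjusted p = 0.0399 by edgeR), close to the median of all genes, and the call was lost in 12 of 25 fits that left out 1 embryo (0.49 to 0.57). Those embryos were siRif1 4-cell 4, 5, 7, 9, 12 and 13 and siRif1 8-cell 2, 3, 4, 5, 10 and 12. In siCon embryos its value was 0.72 (SE 0.27, adjusted p = 0.055 by edgeR). mt-Nd1 was 0.59 (adjusted p = 0.052) in siRif1 and 0.77 (adjusted p = 0.063) in siCon embryos by edgeR.

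At the other end were mt-Cytb and mt-Co1, with the smallest values among the abundant genes. mt-Cytb had 162 to 555 counts per 1000 ERCC counts with a median of 409 in siRif1 8-cell embryos, and 140 to 476 with a median of 338 in siRif1 4-cell embryos. It had 317 to 483 with a median of 376 in siCon 8-cell embryos, and 197 to 449 with a median of 357 in siCon 4-cell embryos. The groups overlapped over most of their range. The log2 fold change was 0.19 (95% confidence interval -0.27 to 0.65) in siRif1 and 0.15 (-0.44 to 0.75) in siCon embryos, which is -0.27 and -0.33 against the median of all genes. The share of chrM counts on mt-Cytb was 16.0% ± 3.25 in siRif1 and 17.1% ± 4.67 in siCon 8-cell embryos, and 22.3% ± 3.26 in siRif1 and 25.5% ± 3.12 in siCon 4-cell embryos (SD). The ATP synthase genes mt-Atp6 and mt-Atp8, the complex IV genes mt-Co2 and mt-Co3, and mt-Nd4l, mt-Nd4 and mt-Nd5 did not pass on either scale.

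**Figure D3:**
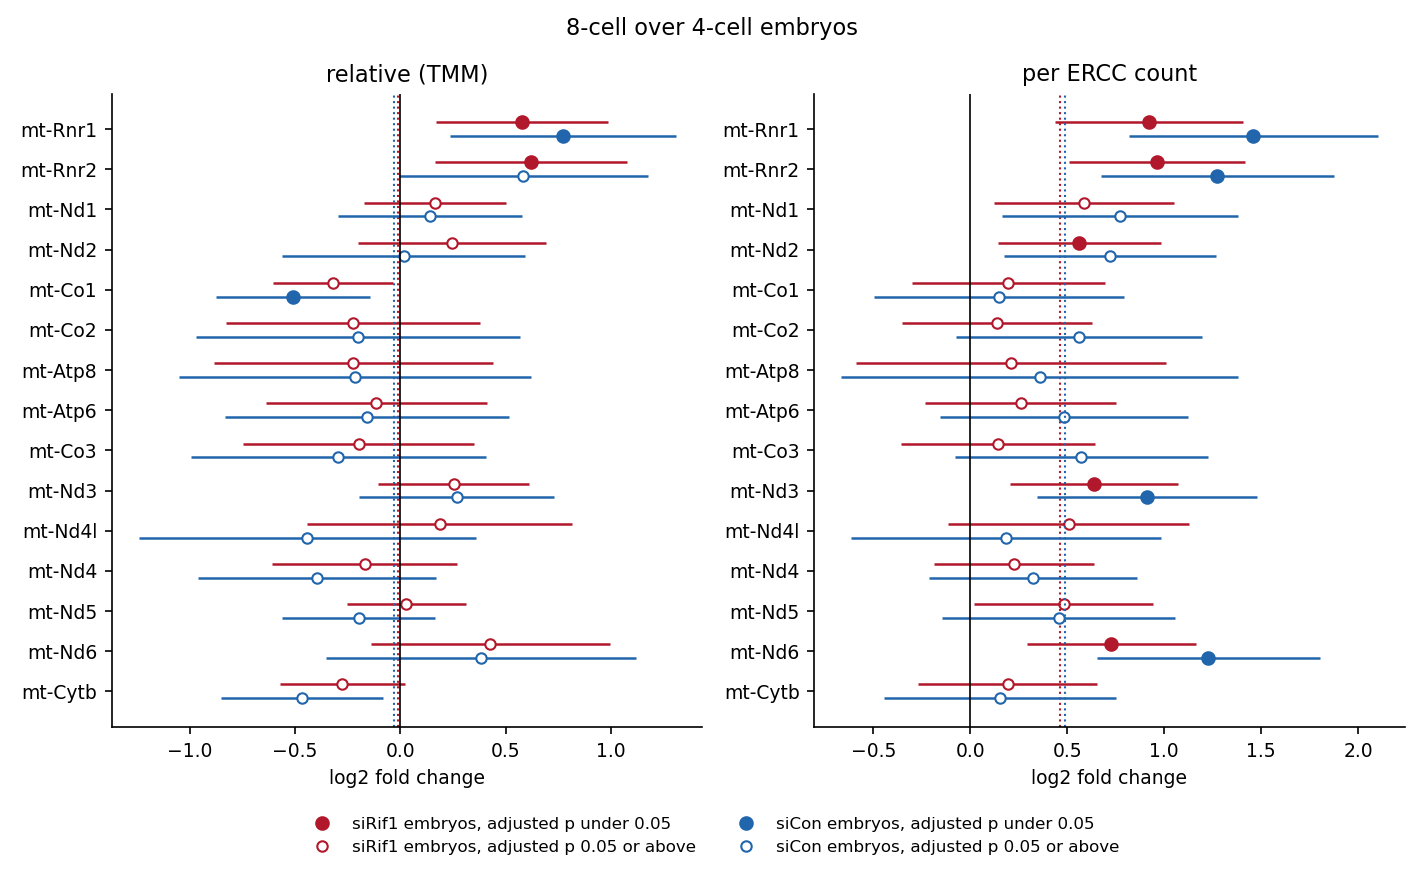
Log2 fold changes of the 15 chrM genes, 8-cell over 4-cell embryos, with 95% confidence intervals from edgeR, for siRif1 embryos (red, upper of each pair) and siCon embryos (blue); filled points have an adjusted p under 0.05 and dotted lines mark the median of all genes. On the relative scale the rRNAs lie above 0 and mt-Co1 and mt-Cytb below it, and per ERCC count all 15 lie above 0.

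The ratios between chrM genes also varied within groups. The log2 ratio of mt-Cytb to mt-Nd5 had a standard deviation within groups of 0.25, that of mt-Cytb to mt-Co1 0.26, that of mt-Cytb to mt-Nd1 0.25, that of mt-Cytb to mt-Nd4 0.29, and that of mt-Cytb to mt-Nd2 0.33. The ratio of mt-Rnr2 to mt-Rnr1 had 0.31. It was 0.47 for mt-Rnr2 to mt-Cytb and 0.52 for mt-Nd6 to mt-Cytb.

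Between siRif1 and siCon embryos, no chrM gene passed at either stage or on either scale with edgeR, and none had an unadjusted p below 0.05. At the 8-cell stage 0 of 15 passed against 0.00844% of all genes on the relative scale and 0.0% per ERCC count. At the 4-cell stage 0 of 15 passed against 0.566% of all genes on the relative scale (0.127% higher and 0.439% lower) and 0.0338% per ERCC count. The counts of chrM genes were also 0 with DESeq2 and with limma-voom on the relative scale. The background is itself close to 0, so these counts say little about the chrM genes in particular. The siCon 4-cell embryos serve in this comparison and in that of the stages, so the values of the comparisons are not independent.

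The intervals give the size that could have been missed. For mt-Rnr2 the relative log2 fold change, siRif1 over siCon, was 0.15 (95% confidence interval -0.37 to 0.67) at the 8-cell stage and 0.11 (-0.42 to 0.65) at the 4-cell stage. For mt-Cytb it was -0.05 (-0.39 to 0.29) and -0.24 (-0.59 to 0.11), and for mt-Nd1 -0.08 (-0.47 to 0.31) and -0.11 (-0.50 to 0.29). For mt-Co1 it was -0.03 (-0.36 to 0.29) and -0.22 (-0.55 to 0.11), and for mt-Rnr1 0.00 (-0.46 to 0.47) and 0.20 (-0.29 to 0.68).

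The largest differences were in genes with few counts. mt-Atp8 had a relative log2 fold change of -0.50 (-1.25 to 0.25) at the 8-cell stage, where 6 of 12 siRif1 embryos lay below all siCon embryos, and -0.49 (-1.24 to 0.26) at the 4-cell stage. mt-Nd4l had -0.57 (-1.28 to 0.15) at the 4-cell stage and 0.06 (-0.66 to 0.78) at the 8-cell stage. The median of the 15 was 0.00 at the 8-cell stage and -0.13 at the 4-cell stage, beside 0.00 and -0.01 over all genes. Without control embryos 3 and 7 no chrM gene was called at the 4-cell stage either, and the relative 4-cell values turned to 0.03 for mt-Nd1 (-0.41 to 0.46) and 0.06 for mt-Co1 (-0.28 to 0.39). They were then 0.15 for mt-Rnr1, 0.06 for mt-Rnr2, -0.06 for mt-Cytb, -0.32 for mt-Atp8 and -0.55 for mt-Nd4l.

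**Figure D4:**
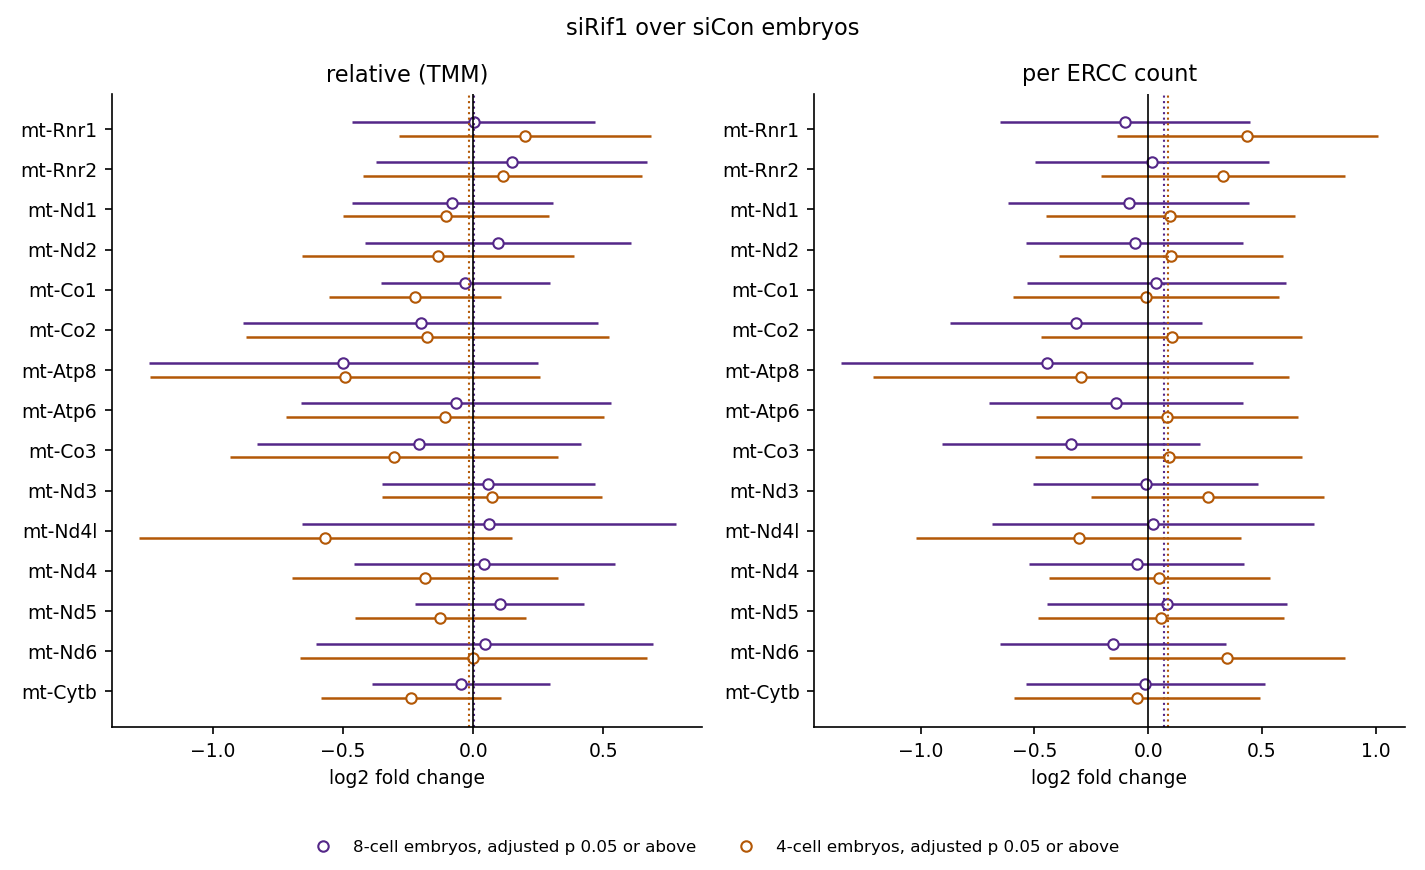
Log2 fold changes of the 15 chrM genes, siRif1 over siCon embryos, with 95% confidence intervals from edgeR, at the 8-cell stage (purple, upper of each pair) and the 4-cell stage (orange); dotted lines mark the median of all genes. Every interval spans 0 on both scales, and those of mt-Atp8 and mt-Nd4l are the widest.

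Other measures differed between these 4-cell groups. The summed level of 14 maternal oocyte transcripts, RNAs that the oocyte leaves behind and the embryo degrades, was 204 to 499 CPM in siRif1 and 254 to 3891 CPM in siCon 4-cell embryos, and at most 909 CPM without control embryos 3 and 7. Of 13 tested, 5 were lower in siRif1 than in siCon 4-cell embryos and 0 higher, where 0.439% of all genes were called lower. Without control embryos 3 and 7 the count was 0, and it was 0 to 5 when 1 embryo was left out. The calls of Bmp15, Btg4 and Zbed3 were lost without embryo 7 alone, and that of Zbed3 also without embryo 3. Per ERCC count 1 of the 13 was lower, where 0.0338% of all genes were called lower, and 0 without embryos 3 and 7. The part of this in the 4-cell values of the chrM genes was not tested. The test of whether the siRNA effect differed between the stages called 0 of 15 chrM genes with edgeR on either scale, against 0.0% of all genes, and 0 had an unadjusted p below 0.05. A call with 1 siRNA and not the other, as for mt-Co1, is thus not shown to differ between them.

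The nuclear genes that act on the mitochondrial genome were looked at on the relative scale, from lists of known members, where 14.5% of all genes were called higher and 15.3% lower in siRif1 embryos, and 13.7% and 16.3% in siCon embryos. Of 10 genes of mitochondrial transcription, 8 were tested, and 2 were lower and 0 higher at the 8-cell stage with each siRNA, with median log2 fold changes of -0.18 in siRif1 and -0.28 in siCon embryos. Tefm, the elongation factor of the mitochondrial RNA polymerase, had 8.56 to 39.8 CPM in siRif1 8-cell and 12.5 to 68.3 CPM in siRif1 4-cell embryos, and 7.29 to 20.8 CPM in siCon 8-cell and 20.8 to 47.3 CPM in siCon 4-cell embryos. It fell by 0.96 (SE 0.23, adjusted p = 0.0013 by edgeR) in siRif1 and by 1.04 (SE 0.29, adjusted p = 0.0065 by edgeR) in siCon embryos, on the log2 scale, and without control embryos 3 and 7 the siCon value was -1.09. The siCon count was then 1 lower. Tfam, which packages mitochondrial DNA and starts its transcription, fell by 0.81 in siRif1 embryos (SE 0.19, adjusted p = 0.00098 by edgeR). Per ERCC count 0 of the 8 passed with either siRNA, beside 26.8% of all genes in siRif1 and 18.8% in siCon embryos. The median of the list was 0.36 in siRif1 and 0.11 in siCon embryos, beside 0.46 and 0.49 over all genes. Without control embryos 3 and 7 the siCon median turned to -0.10.

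Of 27 listed genes of mitochondrial RNA processing, polyadenylation and decay, 25 were tested, and 1 was higher and 4 were lower at the 8-cell stage with each siRNA, 4 of 25 lying near the background for lower calls. Per ERCC count 3 were higher and 1 lower in siRif1 embryos, where 23.1% and 3.72% of all genes were called. In siCon embryos 1 was higher and 1 lower on that scale, where 15.2% and 3.59% of all genes were called. Grsf1, an RNA-binding protein of mitochondrial RNA granules, fell by 0.87 (SE 0.17, adjusted p = 0.00011 by edgeR) in siRif1 and by 1.02 (SE 0.22, adjusted p = 0.00037 by edgeR) in siCon embryos. Ngrn, which takes part in the handling of the 16S rRNA, fell by 0.85 (SE 0.21, adjusted p = 0.0022 by edgeR) and by 1.15 (SE 0.27, adjusted p = 0.0012 by edgeR). Angel2 fell by 1.33 (SE 0.29, adjusted p = 0.00044 by edgeR) and by 2.16 (SE 0.37, adjusted p = 1.9e-05 by edgeR). The higher gene was Ptcd2 in siRif1 embryos (0.58, SE 0.22, adjusted p = 0.047 by edgeR) and Lrpprc, which stabilises mitochondrial mRNAs, in siCon embryos (0.66, SE 0.22, adjusted p = 0.022 by edgeR), and these calls were less stable: that of Ptcd2 was lost in 15 of 25 fits that left out 1 embryo (0.48 to 0.73 over all), and that of Lrpprc without siCon 8-cell embryo 5 (0.53) and without control 4-cell embryos 3 and 7 (0.61).

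Of 7 genes of mitochondrial rRNA modification, all were tested. None passed in siRif1 embryos, where the median was -0.10, and 1 was lower in siCon embryos, where the median was 0.15. That gene was Nsun4, which acts on the 12S rRNA in mitochondrial ribosome assembly, at -1.75 (SE 0.36, adjusted p = 0.00024 by edgeR), or -1.08 (adjusted p = 0.0206 by edgeR) without control embryos 3 and 7. The background is 29.8% of all genes called either way in siRif1 and 30.0% in siCon embryos. Per ERCC count 1 of the 7 was called higher at the 8-cell stage with each siRNA. On that scale 23.1% of all genes were called higher in siRif1 and 15.2% in siCon embryos. The gene was Mettl17, which takes part in assembly of the small mitochondrial ribosomal subunit. Its siCon call was lost without control embryos 3 and 7 (1.08, adjusted p = 0.121 by edgeR).

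Of 16 genes of mitochondrial DNA replication and maintenance, 15 were tested. In siRif1 embryos 1 was higher and 3 were lower, beside 14.5% and 15.3% of all genes. In siCon embryos 0 were higher and 1 was lower, beside 13.7% and 16.3% of all genes. When 1 embryo was left out, 2 to 3 were lower in siRif1 embryos. Per ERCC count 2 were higher and 1 lower in siRif1 embryos, beside 23.1% and 3.72% of all genes. On that scale 0 were higher and 1 lower in siCon embryos, beside 15.2% and 3.59% of all genes. Rrm2b, a ribonucleotide reductase subunit that supplies nucleotides, fell by 1.18 (SE 0.26, adjusted p = 0.00048 by edgeR) in siRif1 and by 2.62 (SE 0.34, adjusted p = 1.7e-07 by edgeR) in siCon embryos, and the siCon value was -1.74 without control embryos 3 and 7. Twnk, the mitochondrial helicase, was higher by 0.67 (SE 0.21, adjusted p = 0.0126 by edgeR) in siRif1 embryos.

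The nuclear-encoded subunits that assemble with the chrM-encoded ones were a further list. Of 19 such subunits, all tested, 7 were higher and 0 lower at the 8-cell stage in siRif1 embryos, with a median of 0.30. In siCon embryos 10 were higher and 0 lower, with a median of 0.49. Of all genes, 14.5% in siRif1 and 13.7% in siCon embryos were called higher. The siCon count was 7 without control embryos 3 and 7. Per ERCC count 8 were higher in siRif1 embryos, or 5 to 16 when 1 embryo was left out, and 7 in siCon embryos, where it was 1 without control embryos 3 and 7 and 3 to 8 when 1 embryo was left out, beside 23.1% and 15.2% of all genes. Cox6c, a subunit of complex IV, had 284 to 622 CPM in siRif1 8-cell and 144 to 384 CPM in siRif1 4-cell embryos, and 261 to 531 CPM in siCon 8-cell and 87.3 to 274 CPM in siCon 4-cell embryos. Its log2 fold change was 0.93 (SE 0.16, adjusted p = 1.6e-05 by edgeR) in siRif1 and 1.22 (SE 0.21, adjusted p = 2.2e-05 by edgeR) in siCon embryos. Atp5d, a subunit of the ATP synthase, had 0.73 (SE 0.16, adjusted p = 0.00048 by edgeR) and 1.03 (SE 0.21, adjusted p = 0.00022 by edgeR). Both siCon calls were also made without control embryos 3 and 7, at 0.96 and 0.95. On the same scale the complex IV genes mt-Co1, mt-Co2 and mt-Co3 had values between -0.32 and -0.20 in siRif1 embryos. In siCon embryos they lay between -0.51 and -0.20. The counts of mt-Co2 and mt-Co3, and in part of mt-Co1, are uncertain because of the nuclear copy. All 13 protein-coding chrM genes ran from -0.32 to 0.43 in siRif1 embryos, with 6 above 0 and 7 below. In siCon embryos the 13 ran from -0.51 to 0.38, with 4 above 0 and 9 below. Of the 13, mt-Co1 in siCon embryos was the one called.

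Of 19 mitochondrial aminoacyl-tRNA synthetases, all tested, 2 were higher and 2 lower in siRif1 embryos, and 1 was higher and 1 lower in siCon embryos, each share below the background. The higher calls in siRif1 embryos were 1 to 2 when 1 embryo was left out. Per ERCC count 3 were higher in siRif1 and 2 in siCon embryos, beside 23.1% and 15.2% of all genes. On that scale 0 were lower, beside 3.72% and 3.59% of all genes. Without control embryos 3 and 7, 1 was higher and 0 lower in siCon embryos on either scale. Wars2, for tryptophan, had 0.88 (SE 0.22, adjusted p = 0.0022 by edgeR) in siRif1 and 1.12 (SE 0.29, adjusted p = 0.0027 by edgeR) in siCon embryos. Of 9 nuclear regulators of mitochondrial biogenesis, 7 were tested. In siRif1 embryos 2 were higher and 0 lower, beside 14.5% and 15.3% of all genes. In siCon embryos 2 were higher and 1 lower, beside 13.7% and 16.3% of all genes. When 1 embryo was left out, 1 to 2 were higher in siRif1 embryos, and 1 to 3 were higher and 0 to 2 lower in siCon embryos; without control embryos 3 and 7 the siCon counts were 0 higher and 2 lower. Per ERCC count 3 were higher and 0 lower with each siRNA. On that scale 23.1% of all genes were called higher and 3.72% lower in siRif1 embryos, and 15.2% and 3.59% in siCon embryos. The siRif1 count was 2 to 4 higher when 1 embryo was left out, and the siCon count was 2 without control embryos 3 and 7. Esrrb, an orphan nuclear receptor, was higher by 1.09 (SE 0.27, adjusted p = 0.0018 by edgeR) in siRif1 and by 1.23 (SE 0.35, adjusted p = 0.0071 by edgeR) in siCon embryos, and the siCon value was 0.87 and no longer called without control embryos 3 and 7. Between siRif1 and siCon embryos, 0 genes of these 7 lists passed at either stage with edgeR, where at most 0.566% of all genes passed. The 7 copies on chromosome 1 were all tested, and 0 passed in any comparison on either scale with edgeR. Between the stages 29.8% of all genes passed in siRif1 and 30.0% in siCon embryos on the relative scale, and 26.8% and 18.8% per ERCC count. For siRif1 against siCon the background is close to 0, so a count of 0 says little about these genes.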

How the data were processed

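The authors deposited raw gene-level read counts for each embryo; STAR 2.7.6a and GRCm38 are named in the submitters' processing notes, with no annotation release given in the sources at hand. Either strand column took 49.7% to 51.2% of both together, and the unstranded column was used. GENCODE M21 gave symbols, positions and transcript sequences. Genes were kept by filterByExpr (minimum count 10) and tested with edgeR 4.0.16 (R 4.3.3; robust quasi-likelihood, 1 coefficient per group, all 40 libraries), scaled by TMM on mouse gene totals (relative) or by ERCC totals, with Benjamini-Hochberg adjustment over 11844 genes. Sums over chrM genes got no test. The procedure was tested on simulated data: in a simulated siRif1 against siCon 4-cell comparison on 11222 genes, 93.5% of 4-fold and 11.3% of 2-fold changes were recovered with TMM. The simulation gave every gene the same set spread between embryos, so these shares do not describe the chrM genes in particular. No 2 libraries were duplicates (lowest chi-square per degree of freedom 7.97).

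The chrM members and all gene lists were chosen with earlier results of these data known. The rule for naming genes took Rif1, the 15 rRNA and protein-coding chrM genes, the tRNAs by range, and from each list up to 3 members each way past the threshold by smallest p, or up to 2 where none passed; not all are printed. Gene lists came from general knowledge. mt-Tp, Snrpn, Dppa3, Eomes and the nuclear copies found by sequence were named after their values were seen. Alternatives were RLE size factors, TMM from nuclear genes alone, DESeq2 1.42.0, limma-voom (limma 3.58.1), no filter, the compared groups alone, the replicate number as a block, each embryo left out, control 4-cell embryos 3 and 7 left out and, chosen after seeing the data, counts of nuclear copies added to their chrM gene.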

Additional observations from a re-analysis of the deposited data

Results flagged for a closer look

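Of 70 combinations of a gene, a scale and a control group that were looked at for a lone embryo, 12 held an embryo whose gap to its nearest neighbour was large for the range of its group. Chance alone marks about 5 in 100 such combinations, and values of 1 embryo share a library and are not independent.

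Control 4-cell embryo 5 was the lone embryo in 9 of the 12. It was high on the CPM scale, with 737 CPM of mt-Rnr1 against at most 347 in the other 4-cell controls, and 41069 CPM of mt-Rnr2 against at most 16399. It had 3393 CPM of mt-Nd2, 190 CPM of mt-Co2, 174 CPM of mt-Nd3, 20.7 CPM of mt-Nd4l, 4683 CPM of mt-Nd4 and 748 CPM of mt-Nd6, where the other 4-cell controls had at most 1825, 95.4, 107, 10.9, 2666 and 193 CPM. Per 1000 ERCC counts it was low for mt-Co1, at 61.9 against 115 to 153 in the other 4-cell controls.

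Control 8-cell embryo 4 stood out in mt-Nd4l, with 20.1 CPM against at most 9.38 in the other 8-cell controls, and with 0.825 against at most 0.359 counts per 1000 ERCC counts. Control 8-cell embryo 8 stood out in mt-Cytb, with 12509 CPM against at most 9242 in the other 8-cell controls. mt-Nd4l had a median of 22 counts per embryo, so its values rest on few reads.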

How the results depend on the processing

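No called result changed direction under any alternative, and all comparisons of siRif1 with siCon and the interaction kept 0 chrM genes called in each. On the relative scale, the 2 chrM genes called between siCon 8-cell and siCon 4-cell embryos became 1 with the replicate block, 0 with the compared groups alone, 0 without control 4-cell embryos 3 and 7, and 1 to 3 when 1 embryo was left out; the cause was not tested. RLE size factors, DESeq2 and TMM from nuclear genes gave 1 higher and 2 lower, and limma-voom 3 higher and 0 lower, where mt-Co1 was at -0.21 (adjusted p = 0.337). The 2 called between siRif1 8-cell and siRif1 4-cell embryos became 0 with no filter on low counts, 1 with RLE size factors and 0 to 2 when 1 embryo was left out. With the compared groups alone, and without control 4-cell embryos 3 and 7, 2 were higher and 1 was lower. Without siRif1 8-cell embryo 11, 0 were higher and 1 was lower. Per ERCC count, the 5 called in siRif1 embryos became 2 with no filter, 2 with the replicate block and 4 with the compared groups alone. With no filter and with the replicate block, mt-Rnr1 and mt-Rnr2 were kept and the calls of mt-Nd2, mt-Nd3 and mt-Nd6 were lost. The 5 became 6 without control 4-cell embryos 3 and 7, and 4 to 6 when 1 embryo was left out. The 4 in siCon embryos became 3 with no filter, 3 with the compared groups alone and 3 without control 4-cell embryos 3 and 7. They became 4 to 5 when 1 embryo was left out. The log2 ratio of chrM counts to ERCC counts, 0.80 higher in siCon 8-cell embryos, was 0.39 higher for the 13 protein-coding genes alone. Adding counts of nuclear copies changed no call.

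Replicate numbers do not pair embryos: same-numbered deviations correlated between -0.24 and 0.17, above 0.1 in 5 of 34 pairs. The 4-cell log2 fold change of Rif1, -1.26, was -1.23 (adjusted p = 0.071) with the replicate block, -1.27 (0.054) with the compared groups alone, -1.35 (0.051) without control 4-cell embryos 3 and 7 and -1.10 (0.60) per ERCC count, all by edgeR, and -1.41 to -1.18 when 1 embryo was left out.

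Depth limits mt-Atp8 and mt-Nd4l, with medians of 17 and 22 counts. The tRNA genes lie next to other genes, and reads over neighbouring genes are not assigned, so tRNA counts do not bound tRNA levels. Spike-in ratios assume equal ERCC input per embryo, and no genome sequence was searched for copies that lack an annotated gene.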
